A study of Mus musculus with 10 samples.

Results

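The genes described are the cytoplasmic translation initiation and elongation factors, taken as every protein-coding gene of the count table whose mouse symbol begins with Eif1 to Eif6 or with Eef1 or Eef2. The eIF2 kinases (Eif2ak), the eIF4E-binding proteins (Eif4ebp) and Eef1e1, which is a scaffold of a synthetase complex, were left out by name. This gave 79 genes of the 55401 in the table, of which 21614 are protein-coding. They were split by symbol into eIF1 (21 genes), eIF2 with its exchange factor eIF2B (11, counting Eif2a and Eif2d, which share the symbol but are subunits of neither), eIF3 (14), eIF4 (15), eIF5 with eIF6 (5), the subunits of the elongation factors (6) and the enzymes that modify those factors (7).

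RNA had been sequenced in bulk from 10 KPN1.1 tumors, 5 from mice given liraglutide and 5 from mice given its PBS vehicle, and the comparison asks what a GLP-1 receptor agonist does to gene expression in the tumors of obese mice. KPN1.1 is a single mouse lung adenocarcinoma line, and it was injected under the skin of male C57BL/6J mice with diet-induced obesity, aged 7 to 17 weeks, on a high-fat diet. Liraglutide was injected into the peritoneum daily at 0.2 µg/g body weight once tumors could be felt, and mice were euthanized on days 19 to 22. Both groups thus shared the line, the strain, the sex and the diet, and a flank graft differs from a lung tumor in its host tissue. The labels number the tumors 1 to 5 in each group and do not say whether each came from its own mouse, so the p-values measure only the spread between these tumors.

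Initiation begins when eIF2, carrying the initiator tRNA, joins the small ribosomal subunit with eIF1, eIF1A, eIF3 and eIF5. The eIF4 factors bind the cap of the mRNA and unwind its leader, and eIF5B brings in the large subunit. eEF1A then delivers each aminoacyl-tRNA and eEF2 moves the ribosome along. In tumor cells these factors are known as points where growth signals and stress set the rate of protein synthesis.

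Many mRNAs of this machinery begin with a run of C and T at the cap, the terminal oligopyrimidine or TOP tract, and the E-box CACGTG, which reads the same on both strands, is a site of MYC and related factors. These letters were searched in the RefSeq promoter windows of build GRCm38.p6, 250 bases before to 50 after each annotated start, which held 46 of the 58 members tested below. Windows of 30 bases are shown for 6 members with a long run at the start, as examples of the feature, with the run of C and T on the transcribed strand in capitals.
Eef1a1, chr9:78481712-78481741, minus strand: gtgctggctccgCCCTCTTCCCgagggtgg
Eif3f, chr7:108934398-108934427, plus strand: cttctgttctaggCTCTCTCTCTTTCTCgg
Eif3l, chr15:79075206-79075235, plus strand: aggcgcggagTTCTTCTTCCgctctctccc
Eif2b5, chr16:20498800-20498829, plus strand: TTCCTTCCTCTTTCTCTCCCTgcaactaca
Eif2s3x, chrX:94212639-94212668, minus strand: ggctgccgagcaTTTTCCTTTTCTCTCCga
Eif2s3y, chrY:1010578-1010607, plus strand: cagcggaggccacagccaCTTCCTTCTTTC

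A run of at least 10 pyrimidines within 5 bases of an annotated start was found in 9 of these 46 members (19.6%), against 5.82% of the 27025 genes with a promoter window. The other members with such a run were Eef1akmt2, Eif4e and Eif4enif1. Their runs began at -13, -12 and -10 from the first transcribed base and ended before it, so by annotation they were not at the cap. The X-linked and Y-linked copies of the eIF2 gamma gene both had one. The 46 members had passed the filter on low counts, whereas the genes with a window were not filtered by expression. CACGTG was found in 13 of the 46 (28.3%), against 8.09% of genes with a window. Over all windows of a gene, Eif4e, Eif4g1, Eif5a (6 windows) and Eif5a2 held CACGTG at more than 1 place, as 0.759% of these genes did. The windows around it for the cap-binding protein and its scaffold are shown with the E-box in capitals.
Eif4e, chr3:138527028-138527057, plus strand: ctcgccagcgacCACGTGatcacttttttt
Eif4e, chr3:138527192-138527221, plus strand: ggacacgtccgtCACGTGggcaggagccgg
Eif4g1, chr16:20672661-20672690, plus strand: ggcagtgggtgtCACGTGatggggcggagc
Eif4g1, chr16:20672730-20672759, plus strand: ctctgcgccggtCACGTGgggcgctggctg

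Total counts were 9927942 to 14480593 per tumor. Expression is given as CPM, a gene's counts scaled to a common library size by the TMM method (factors 0.951 to 1.05). Where genes are compared with each other it is given as TPM, which divides by transcript length and was not scaled by TMM. That length is of 1 canonical transcript per gene, so the order of genes by TPM depends on the annotation. The epithelial keratins Krt8, Krt18 and Krt19 were abundant, while Epcam was low (2.46 ± 1.90 CPM in vehicle and 3.00 ± 0.841 CPM in liraglutide tumors, SD, n = 5). Xist, the RNA of the inactive X chromosome, reached 986 CPM in vehicle tumor 4 and 712 CPM in liraglutide tumor 5 and was at most 78.5 CPM in the other tumors, while transcripts of the Y-linked genes Ddx3y, Kdm5d and Uty were found in every tumor. Counts without those 2 tumors are given beside the results they change. A low value in a bulk fragment can come from fewer cells of a type or from less RNA per cell, and these cannot be told apart.

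Expression covered a wide range within the machinery. The members together took 1.79% to 2.20% of the counts in vehicle tumors and 1.70% to 2.04% in liraglutide tumors. Eef1a1 alone, the factor that delivers aminoacyl-tRNA, held 31.8% to 35.7% of the member counts in vehicle tumors and 31.9% to 34.5% in liraglutide tumors, and its mean level was 10739 TPM. The next levels were Eef2 at 1844 TPM, the helicase Eif4a1 at 1102 TPM, Eef1g at 1077 TPM and Eif5a at 909 TPM. Eef2 and the genes after it lay well below Eef1a1 in every tumor, whereas the ranges of Eif4a1, Eef1g and Eif5a overlapped. In the mean of all tumors, the member of highest level in the other groups was Eif1 at 645 TPM, Eif3a at 500.5 TPM, Eif2s2 at 241 TPM and, among the modifying enzymes, Eef2k at 27.7 TPM. The order within eIF3 turned with the group, since Eif3e was at 588 TPM and Eif3a at 522 TPM in vehicle tumors, and at 406 TPM and 479 TPM in liraglutide tumors. The median over the 58 tested members was 122 TPM.

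**Figure D1:**
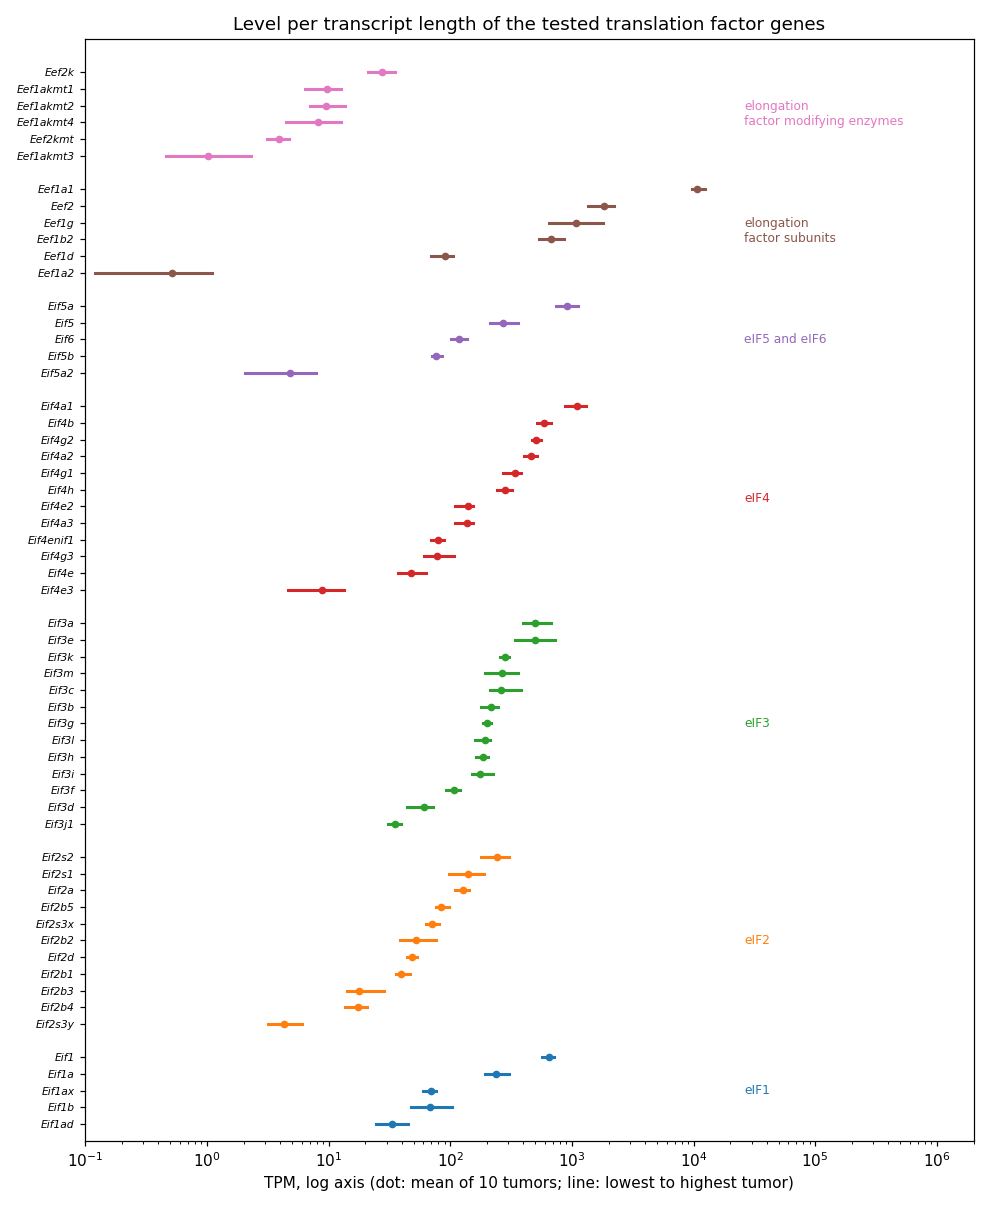
Level of the 58 tested members in TPM on a log axis, by factor group; the dot is the mean of 10 tumors and the line runs from the lowest to the highest tumor. Eef1a1 stands apart at 10739 TPM and Eef1a2 is the lowest at 0.521 TPM, over a canonical transcript of 13742 bases. In CPM, which does not divide by length, Eef1akmt3 (means 0.791 in vehicle and 1.05 in liraglutide tumors) was below Eef1a2 (1.72 and 2.98).

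Within eIF3, the scaffold of the initiation complex, 13 subunits ranged in the mean of all tumors from 35.0 TPM (Eif3j1, loosely bound to the complex) to 497 TPM (Eif3e) and 500.5 TPM (Eif3a, its largest subunit), with a median of 201 TPM. Within eIF2 and eIF2B the range was 4.32 TPM (Eif2s3y) to 241 TPM (Eif2s2), and within eIF4 it was 8.79 TPM (Eif4e3) to 1102 TPM (Eif4a1). Eif4e, the cap-binding protein, was at 48.0 TPM, below its partners Eif4g1 (343 TPM) and Eif4a1 in every tumor. The mRNAs of 1 complex were therefore not present at like levels per length. Reads of near-identical copies may be split or lost in counting, since the handling of reads with several matches is not given in the sources used here. This bears on Eef1a1 with its processed copies, on Eif3j1 with Eif3j2, and on the Eif1a and Eif1ad families.

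Of the 79 members, 58 passed the filter on low counts and were tested, and 49 of them had at least 100 counts in every tumor. The other 21 comprised 16 predicted Eif1ad copies (Eif1ad2, Eif1ad3, Eif1ad4, Eif1ad6, Eif1ad7, Eif1ad8 and Eif1ad10 to Eif1ad19), Eef1ece2, Eif3j2, Eif4a3l1, Eif4a3l2 and Eif4e1b. None of the 21 had more than 11 counts in a tumor, and 8 had no count in any tumor, which allows up to 0.207 to 0.302 CPM by counting error alone.

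Most members were lower in liraglutide than in vehicle tumors, by small amounts, and none passed the test over all genes. In edgeR's quasi-likelihood test with Benjamini-Hochberg adjustment over 17464 genes, 0 members and 0 genes of any kind (0%) had an adjusted p under 0.05, and the smallest adjusted p was 0.482. DESeq2's Wald test called 52 genes, 0.148% of the 35103 with a p-value, some of which had no adjusted p. It called 0 members, and 31 of the 71 members with a p-value had no adjusted p. The smallest adjusted p of a member in DESeq2 was 0.0584 for Eif3e, and limma-voom called 0. The log2 fold change of liraglutide over vehicle was negative in 46 of the 58 members, against 52.6% of all genes. At an unadjusted p under 0.05, 16 of the 58 were lower, against 5.62% of all genes, and 1 was higher, against 3.97%. Without the tumors of highest Xist, vehicle 4 and liraglutide 5, 0 members were higher in edgeR at that level, against 4.63% of all genes, in a fit chosen after the data were seen. The median log2 fold change was -0.17 over the members and -0.02 over all genes. In 2 members, Eif3i and Eif2s3x, all liraglutide tumors lay below all vehicle tumors, against 0.888% of all genes, and in 0 members were they all above, against 0.607%.

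The count of lower members rested in part on single tumors. It was 9 without liraglutide tumor 5 (2.99% of all genes were lower in that fit), 10 without liraglutide tumor 4 (3.98%), 10 without vehicle tumor 2 (3.35%) and 24 without vehicle tumor 4 (8.06%). Eif2s1, Eif3j1, Eif4a2, Eif4g2 and Eef1a1 did not reach this level with library size alone in place of TMM, nor with 1 surrogate variable, a covariate estimated from the expression data, and Eif5a did not with the latter.

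**Figure D2:**
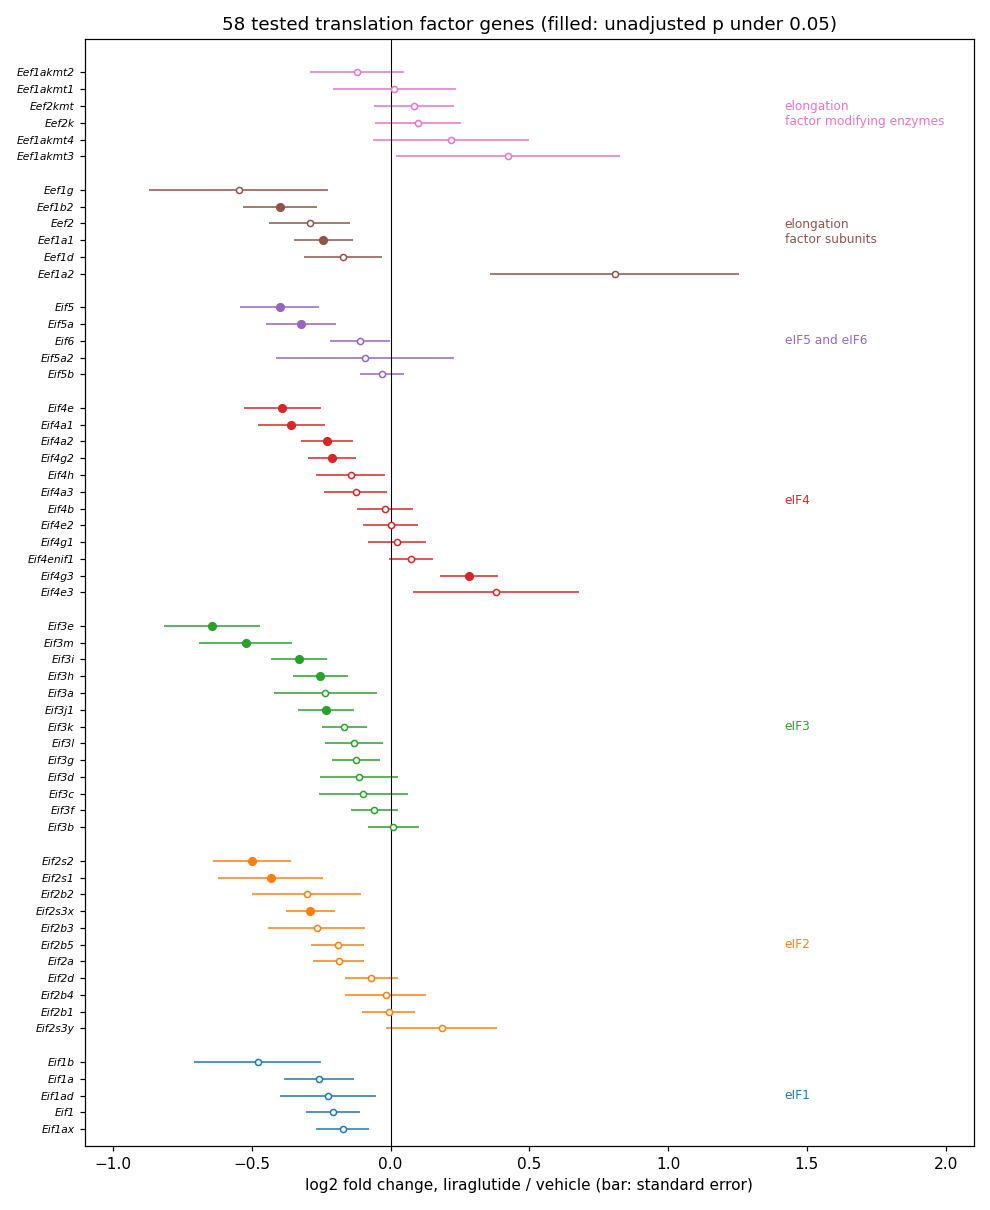
Log2 fold change of liraglutide over vehicle (horizontal axis) of each of the 58 tested members, by factor group; bars are standard errors and filled dots have an unadjusted p under 0.05. In eIF1 and in eIF5 with eIF6 every member is left of 0, while 5 of 6 modifying enzymes are right of it.

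Of the 11 members of the eIF2 group, 10 had a negative log2 fold change and the median was -0.19. At an edgeR unadjusted p under 0.05, 3 were lower. Of all genes, 52.6% were negative and 5.62% lower at that level. The 3 lower members were subunits of eIF2 itself, the GTP-binding complex that carries the initiator tRNA. Its beta subunit Eif2s2 was at 217, 276, 224, 253 and 233 CPM in vehicle tumors 1 to 5 and at 155, 233, 167, 155 and 140 CPM in liraglutide tumors 1 to 5. Liraglutide tumor 2 lay within the vehicle range and the other 4 below all of it. The log2 fold change was -0.50 ± 0.14 (SE; edgeR unadjusted p = 0.0042, adjusted p = 0.482).

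Eif2s3x, the X-linked gamma subunit, was at 92.4, 105, 94.5, 89.6 and 91.6 CPM in vehicle tumors and at 76.8, 88.8, 74.8, 74.3 and 72.8 CPM in liraglutide tumors. The groups did not overlap, although liraglutide tumor 2 came within 1 CPM of vehicle tumor 4. Its log2 fold change was -0.29 ± 0.09 (edgeR unadjusted p = 0.0077, adjusted p = 0.482). The Y-linked copy Eif2s3y, at 3.19 to 6.04 TPM over all tumors, had a log2 fold change of 0.18 ± 0.20 (edgeR unadjusted p = 0.38). That value was 0.11 without liraglutide tumor 5, 0.29 without liraglutide tumor 2 and 0.02 with 1 surrogate variable. It made up 4.07% to 6.36% of the gamma subunit mRNA per length in vehicle tumors and 4.29% to 8.53% in liraglutide tumors.

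Eif2s1, the alpha subunit that stress kinases phosphorylate, was at 214, 232, 157, 154 and 153 CPM in vehicle tumors and at 119, 197, 107, 133 and 118 CPM in liraglutide tumors, again with liraglutide tumor 2 among the vehicle values (log2 fold change -0.43 ± 0.19, edgeR unadjusted p = 0.042, and -0.25 with 1 surrogate variable). All 5 subunits of eIF2B, which reloads eIF2 with GTP, had a negative log2 fold change, 0 of them at an edgeR unadjusted p under 0.05, and the median was -0.19. For its catalytic subunit Eif2b5 the vehicle tumors ranged from 64.7 to 87.0 CPM and the liraglutide tumors from 63.9 to 70.3 CPM (log2 fold change -0.19 ± 0.10). The difference between eIF2 (median -0.36) and eIF2B was not tested.

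In eIF3, 12 of 13 tested subunits had a negative log2 fold change and 5 were lower at an unadjusted p under 0.05, with a median of -0.17, where 52.6% of all genes were negative and 5.62% lower. The subunit with the smallest p of all members was Eif3e, at 351, 414, 349, 282 and 223 CPM in vehicle tumors and 220, 261, 176, 205 and 176 CPM in liraglutide tumors. Vehicle tumor 5 lay among the liraglutide values and the other vehicle tumors above them. The log2 fold change of Eif3e was -0.64 ± 0.17 (edgeR unadjusted p = 0.0032, adjusted p = 0.482).

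Its partner Eif3m was at 150, 169, 141, 142 and 92.4 CPM in vehicle tumors and at 103, 122, 94.1, 86.7 and 78.5 CPM in liraglutide tumors. The order was like that of Eif3e, with vehicle tumor 5 low (log2 fold change -0.52 ± 0.17, edgeR unadjusted p = 0.0094). Eif3i, which sits outside the octamer core, had 66.0, 72.0, 76.8, 66.1 and 88.5 CPM in vehicle tumors and 59.0, 61.6, 55.3, 61.7 and 56.3 CPM in liraglutide tumors. Here vehicle tumor 5 was the highest and the groups did not overlap (log2 fold change -0.33 ± 0.10, edgeR unadjusted p = 0.0075). Eif3h, a core subunit, ranged from 179 to 222 CPM in vehicle and from 155 to 193 CPM in liraglutide tumors (-0.25 ± 0.10, edgeR unadjusted p = 0.025).

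The values differed among the subunits of eIF3. Eif3b had a log2 fold change of 0.01 ± 0.09 and Eif3f of -0.06 ± 0.08, while Eif3a, with 681 to 1177 CPM in vehicle and 697 to 1111 CPM in liraglutide tumors, overlapped throughout (-0.23 ± 0.18). The value for Eif3a was -0.38 without liraglutide tumor 2, -0.14 without vehicle tumor 1, -0.15 without vehicle tumor 2 and -0.03 with 1 surrogate variable. As a share of the 13 subunits per length, a quantity free of library scaling, Eif3e was 19.2%, 21.4%, 19.7%, 18.6% and 13.9% in vehicle tumors and 15.4%, 15.9%, 12.7%, 14.9% and 13.1% in liraglutide tumors. Vehicle tumor 5 was again among the liraglutide tumors. That tumor had Eif3c at 507 CPM, against 274 to 344 CPM in the other vehicle tumors and 289 to 353 CPM in the liraglutide tumors. These shares were chosen after the values were seen and were not tested. The 8 octamer subunits had a median log2 fold change of -0.20 and the 5 others of -0.13.

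**Figure D3:**
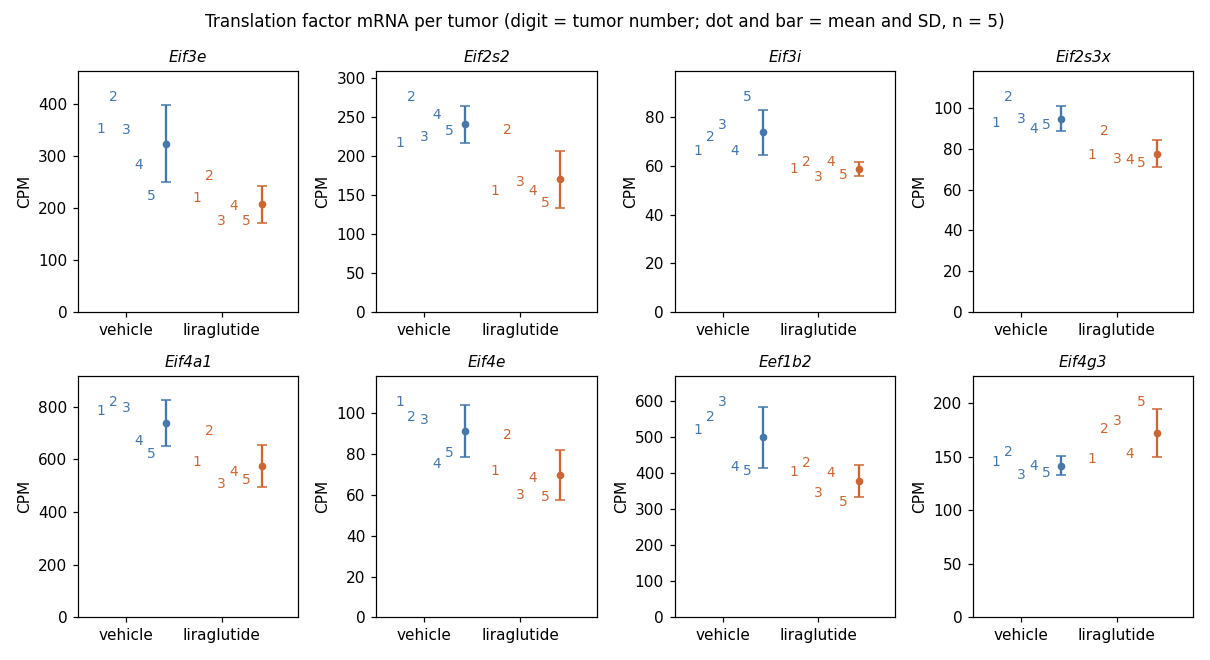
CPM (vertical axis, from 0) of 8 members in each tumor; each digit is the number of a tumor, and the dot with its bar is the mean and SD of 5 tumors. Liraglutide tumor 2 is the highest of its group for Eif3e, Eif2s2, Eif2s3x, Eif4a1, Eif4e and Eef1b2, and for Eif4g3 the liraglutide mean is the higher one.

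The eIF4 group, which brings the capped mRNA to the ribosome, had members on both sides. Of 12 tested members 8 had a negative log2 fold change, where 52.6% of all genes were negative. At an edgeR unadjusted p under 0.05, 4 were lower (5.62% of all genes) and 1 higher (3.97% of all genes). The median was -0.07. This median was -0.13 without vehicle tumor 4, -0.04 without vehicle tumor 3, -0.05 without liraglutide tumor 5, -0.02 with library size alone and -0.03 with 1 surrogate variable. The cap-binding protein Eif4e was at 106, 98.2, 96.7, 75.1 and 80.6 CPM in vehicle tumors and at 71.5, 89.3, 60.0, 68.4 and 59.1 CPM in liraglutide tumors, with liraglutide tumor 2 inside the vehicle range (log2 fold change -0.39 ± 0.14, edgeR unadjusted p = 0.017). The helicase Eif4a1 was at 782, 818, 795, 668 and 621 CPM in vehicle tumors and at 592, 706, 506, 550 and 521 CPM in liraglutide tumors (-0.36 ± 0.12, edgeR unadjusted p = 0.013). For its paralog Eif4a2 the ranges were 351 to 452 CPM and 316 to 386 CPM (-0.23 ± 0.09, edgeR unadjusted p = 0.033). The groups overlapped in all 3, and with 1 surrogate variable Eif4e was at -0.24 and Eif4a1 at -0.24.

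The scaffold Eif4g1 was at 584 to 837 CPM in vehicle and 703 to 793 CPM in liraglutide tumors (log2 fold change 0.02 ± 0.10), and was negative without vehicle tumor 4 (-0.04) and without the tumors of highest Xist (-0.03). Eif4g3, a second scaffold, was at 145, 155, 133, 141 and 135 CPM in vehicle tumors and at 148, 176, 183, 153 and 201 CPM in liraglutide tumors. This was the 1 member higher at an unadjusted p under 0.05 (0.28 ± 0.10, edgeR unadjusted p = 0.019, adjusted p = 0.482), with overlap at liraglutide tumors 1 and 4, and it did not reach that level without liraglutide tumor 5, alone or together with vehicle tumor 4. The minor cap-binding paralog Eif4e3 (4.08 to 10.3 CPM in vehicle and 5.18 to 11.3 CPM in liraglutide tumors, 0.38 ± 0.30) and the eIF4E-binding transporter Eif4enif1 (0.07 ± 0.08) were also on the positive side, with overlapping groups. Eif4e3 was at 0.25 without vehicle tumor 1, 0.61 without vehicle tumor 5 and 0.19 with 1 surrogate variable.

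All 5 tested eIF1 members and all 5 of eIF5 with eIF6 had a negative log2 fold change in edgeR, with medians of -0.23 and -0.11. Of all genes, 52.6% were negative. In mean TPM, Eif5b (73.7 in vehicle and 77.8 in liraglutide tumors), Eif6 (118.5 and 118.7) and Eif5a2 (4.78 and 4.82) were slightly higher with liraglutide. Eif5 and Eif5a were lower in TPM as well. The eIF1 median was -0.14 with 1 surrogate variable, and that of eIF5 with eIF6 ran from -0.28 without vehicle tumor 2 to -0.04 without vehicle tumor 5. Eif1, which guards start codon choice, was at 288 to 347 CPM in vehicle and 240 to 306 CPM in liraglutide tumors (-0.21 ± 0.10, edgeR unadjusted p = 0.059). In eIF1, 0 members were at an edgeR unadjusted p under 0.05, and in eIF5 with eIF6 2 were lower, against 5.62% of all genes. Eif5, which triggers GTP hydrolysis by eIF2, was at 587, 677, 505, 485 and 456 CPM in vehicle tumors and 371, 523, 359, 430 and 372 CPM in liraglutide tumors. Liraglutide tumor 2 again lay within the vehicle range (-0.40 ± 0.14, edgeR unadjusted p = 0.017, and -0.26 with 1 surrogate variable). Eif5a, which helps ribosomes past difficult peptide bonds, was at 483, 488, 547, 337 and 463 CPM and at 368, 415, 358, 372 and 341 CPM in the same order. Vehicle tumor 4 was the lowest of all 10 there (-0.32 ± 0.13, edgeR unadjusted p = 0.026). Eif6, which keeps free large subunits from joining, had a log2 fold change of -0.11 ± 0.11, which was -0.04 without vehicle tumor 5 and -0.06 without liraglutide tumor 2 or vehicle tumor 3.

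Among the elongation factor subunits 5 of 6 had a negative log2 fold change (52.6% of all genes), 2 were lower at an unadjusted p under 0.05 (5.62% of all genes), and the median was -0.27, or -0.13 with 1 surrogate variable. Eef1a1 was at 7003, 7383, 8058, 5968 and 6549 CPM in vehicle tumors and at 6169, 6486, 5991, 5579 and 5334 CPM in liraglutide tumors, so that vehicle tumor 4 lay below 3 liraglutide tumors (-0.24 ± 0.11, edgeR unadjusted p = 0.045, adjusted p = 0.515). Eef1b2, part of the exchange factor that recharges eEF1A, was at 520, 557, 598, 417 and 406 CPM and at 403, 428, 345, 400 and 320 CPM. In that gene vehicle tumors 4 and 5 lay below liraglutide tumor 2 (-0.40 ± 0.13, edgeR unadjusted p = 0.012). Eef2, the translocase, was at 2235, 2377, 2135, 1405 and 2356 CPM in vehicle tumors and 1746, 1989, 1578, 1751 and 1521 CPM in liraglutide tumors. Without vehicle tumor 4, the lowest of all 10, the groups would not have overlapped (-0.29 ± 0.15, edgeR unadjusted p = 0.072). With 1 surrogate variable Eef1b2 was at -0.26 and Eef2 at -0.19.

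Eef1a2, the form of eEF1A known from muscle and nerve, was at 0.553 to 3.25 CPM in vehicle and 1.55 to 4.69 CPM in liraglutide tumors (0.81 ± 0.45, edgeR unadjusted p = 0.099, and 0.47 with 1 surrogate variable). It was highest in the liraglutide tumor with the highest sum of skeletal muscle markers. That sum was 46.8 to 306 CPM in vehicle and 112 to 423 CPM in liraglutide tumors. All 8 markers had a positive log2 fold change, where 52.6% of all genes were negative. At an edgeR unadjusted p under 0.05, 2 of them were higher, against 3.97% of all genes. The part of muscle in the Eef1a2 values was not tested.

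Of 6 tested enzymes that modify the elongation factors, 5 had a positive log2 fold change, where 52.6% of all genes were negative. At an edgeR unadjusted p under 0.05 there were 0, against 5.62% of all genes lower and 3.97% higher. The median was 0.09. With single tumors left out the median ran from 0.04 without vehicle tumor 2 to 0.17 without vehicle tumor 3, and it was negative (-0.0036) with 1 surrogate variable. Eef2k, the kinase that inhibits eEF2, was at 47.4 to 71.8 CPM in vehicle and 46.3 to 71.5 CPM in liraglutide tumors (0.10 ± 0.16), and Eef1akmt3 at 0.418 to 1.22 and 0.607 to 1.94 CPM (0.42 ± 0.40). Each was negative in 1 alternative, Eef2k with 1 surrogate variable (-0.016) and Eef1akmt3 without the tumors of highest Xist (-0.084). With single tumors left out, Eef2k ran from 0.03 without vehicle tumor 1 to 0.20 without liraglutide tumor 2, and Eef1akmt3 from 0.07 without liraglutide tumor 5 to 0.65 without vehicle tumor 5.

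To set the groups side by side within a tumor, each member's log2 CPM was standardized over the 10 tumors and averaged per group. The score of all 58 members was 0.42, 0.44, 0.63, -0.27 and 0.34 in vehicle tumors and -0.33, -0.01, -0.30, -0.40 and -0.51 in liraglutide tumors. Vehicle tumor 4 stood among the liraglutide tumors and liraglutide tumor 2 was nearest to the vehicle tumors. The eIF2 score was the only 1 of the 7 group scores in which all liraglutide tumors (-0.64 to 0.02) lay below all vehicle tumors (0.13 to 0.53). By contrast vehicle tumor 4 was the lowest of all 10 tumors in the eIF4 score (-0.56) and in that of the elongation subunits (-0.83). Of the 58 members, vehicle tumor 3 had the highest value in 16, liraglutide tumor 5 the lowest in 16 and vehicle tumor 4 the lowest in 14.

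**Figure D4:**
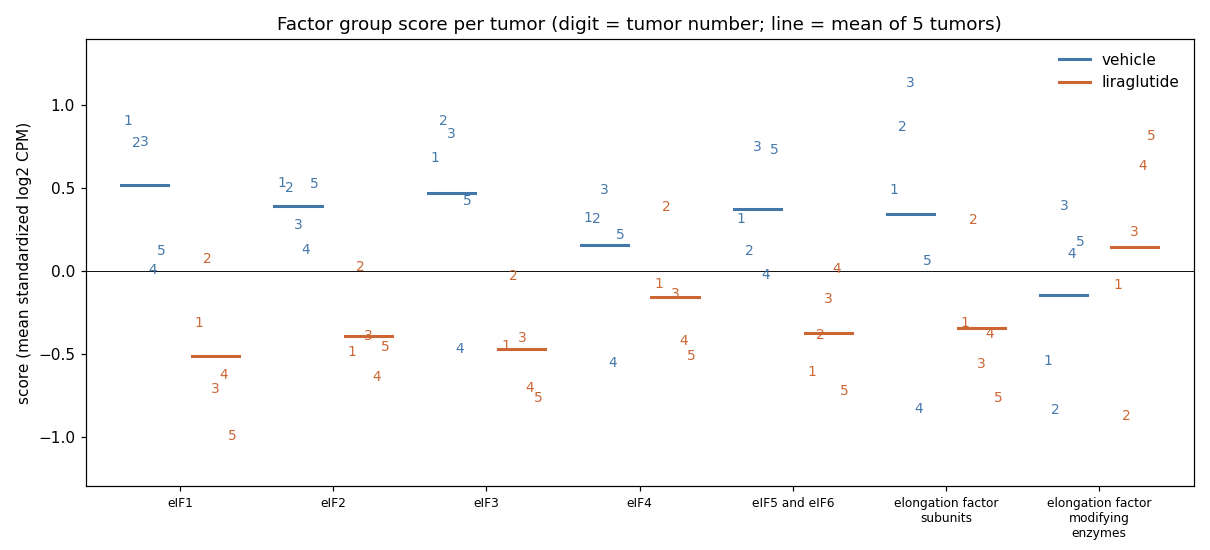
Score of each factor group (vertical axis, mean standardized log2 CPM of its tested members) in each tumor; digits are tumor numbers, lines the mean of 5 tumors. The groups separate fully for eIF2, while vehicle tumor 4 is low for eIF3, eIF4 and the elongation factor subunits.

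Ratios of paralogs within a tumor do not depend on library scaling, and 9 pairs were compared by an exact permutation test, two-sided. Its smallest possible p with these 10 tumors is 0.00794. The log2 ratio of Eif4g2, an eIF4G relative that does not bind eIF4E, to Eif4g1 was 1.01 ± 0.15 (SD, n = 5) in vehicle and 0.77 ± 0.09 in liraglutide tumors. The difference of -0.24 had an exact permutation p of 0.0159, which was 0.143 after Benjamini-Hochberg adjustment over the 9 pairs, and 4 of 5 liraglutide tumors lay below every vehicle tumor. Eif4g2 itself was at 1327 to 1540 CPM in vehicle and 1152 to 1375 CPM in liraglutide tumors. The ratio of Eif4e2, a cap-binding protein that does not recruit eIF4G, to Eif4e was higher by 0.40 (exact permutation p = 0.0714, adjusted 0.155). Eif2s3y to Eif2s3x was higher by 0.45 (p = 0.0952 by the exact permutation test) and Eef1a2 to Eef1a1 by 1.13 (p = 0.0794 by the exact permutation test). The remaining 5 pairs had exact permutation p-values from 0.0873 to 0.563, and among them Eif4e3 to Eif4e was higher by 0.80, Eif5a2 to Eif5a by 0.28 and Eif4a2 to Eif4a1 by 0.13, while Eif1b to Eif1 had a difference of -0.20 (-0.33 without vehicle tumor 5 and -0.08 without vehicle tumor 1). The difference for Eif5a2 to Eif5a was 0.00036 without vehicle tumor 2 and 0.59 without vehicle tumor 4. No pair passed the adjustment.

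**Figure D5:**
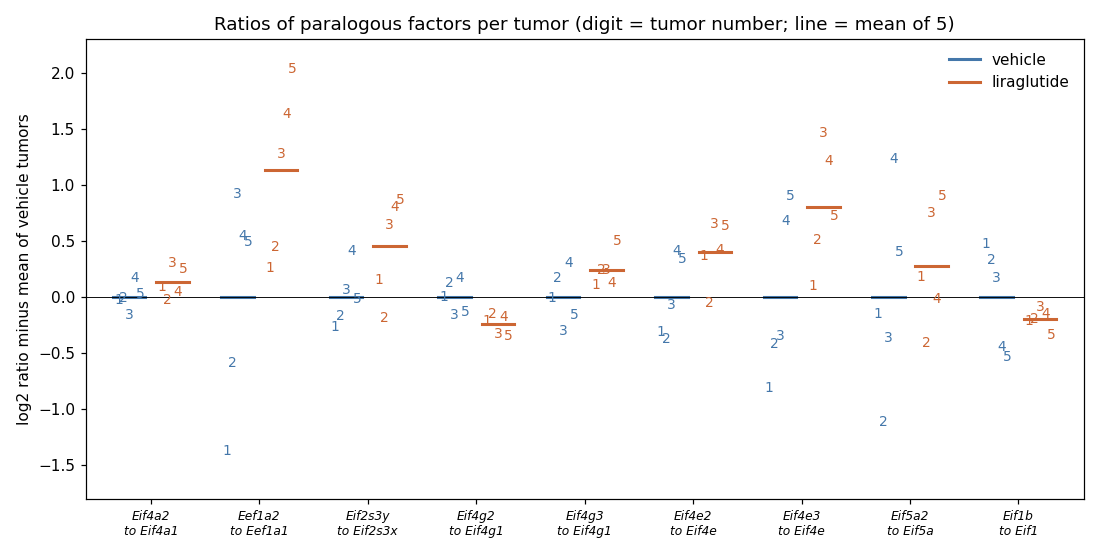
Log2 ratio of 9 paralog pairs in each tumor, less the mean of the vehicle tumors (vertical axis, log2 units); digits are tumor numbers and lines the mean of 5 tumors. Eif4g2 to Eif4g1 is 0.24 lower on average in the liraglutide tumors and spreads little, whereas Eef1a2 to Eef1a1 spreads widely in both groups.

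The sequence features shown above were set beside the differences. Members with a pyrimidine run had a median log2 fold change of -0.13 (7 of 9 negative) and those without one of -0.14, while members with CACGTG had -0.17 (10 of 13 negative) and those without it -0.13. The 9 members with textbook TOP mRNAs, which are Eef1a1, Eef1b2, Eef1d, Eef1g, Eef2, Eif3e, Eif3f, Eif3h and Eif4b, all had a negative log2 fold change and 4 were lower at an unadjusted p under 0.05, where 52.6% of all genes were negative and 5.62% lower. Their median was -0.25, beside -0.13 in the 49 other members. Of those with a promoter window, Eef1a1 and Eif3f held the pyrimidine run at the annotated start, and Eef1b2, Eef2 and Eif4b did not. The 75 tested cytoplasmic ribosomal protein genes, whose mRNAs are also of the TOP kind, had a median of -0.39, all of them negative and 60 lower at an unadjusted p under 0.05.

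Genes that act on the factors were taken from lists of their own. Of all genes tested, 52.6% had a negative log2 fold change. At an edgeR unadjusted p under 0.05, 5.62% were lower and 3.97% higher. In 0.888% all liraglutide tumors lay below all vehicle tumors. The 6 genes of eIF2 kinases and phosphatase subunits had 2 negative and 4 positive log2 fold changes, with 0 at an edgeR unadjusted p under 0.05. The regulators of eIF4E and the mRNA closed loop had 6 of 12 tested genes negative, and the mitochondrial translation factors 6 of 9, with 0 in either list at that level in edgeR. In termination, all 3 tested release and recycling genes were negative, and 2 were lower at an unadjusted p under 0.05, the recycling ATPase Abce1 (-0.42 ± 0.11) without overlap between the groups and the release factor Etf1 (-0.27 ± 0.12). Both re-initiation genes, Denr and Mcts1, were negative with 0 at an edgeR unadjusted p under 0.05. Of 10 listed targets of the integrated stress response, Ddit3 was not matched by symbol and is not covered. The 9 tested genes were all negative and 1, the serine synthesis enzyme Phgdh, was lower at an unadjusted p under 0.05 (-0.81 ± 0.22). Without vehicle tumor 5, a fit chosen after the data were seen, 4 of the 9 were negative and 5 positive, with Phgdh at -0.80 ± 0.23. The summed level of the targets was 1234 CPM in vehicle tumor 5, the tumor of low Eif3e and high Eif3c, and 407 to 631 CPM in all other tumors.

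Marker genes of proliferation and of other cell types were set beside the members, and 0 of them passed edgeR's adjusted test. Over all genes tested, 52.6% were negative, and 5.62% were lower and 3.97% higher at an edgeR unadjusted p under 0.05. Proliferation markers summed to 1638, 1807, 1771, 892 and 1480 CPM in vehicle tumors and 1047, 1708, 1132, 1113 and 1055 CPM in liraglutide tumors, so that vehicle tumor 4 and liraglutide tumor 2 stood apart from their groups in the same direction as for the members. All 5 of these markers were negative, 1 of them at an unadjusted p under 0.05. Leukocyte markers summed to 274 to 592 CPM in vehicle and 335 to 738 CPM in liraglutide tumors, and 13 of 13 tested were positive with 0 at an edgeR unadjusted p under 0.05. Keratinocyte markers reached 210 CPM in liraglutide tumor 2 (6.65 to 210 CPM in its group) and were 8.50 to 18.6 CPM in vehicle tumors, with Krt5 and Krt1 at 0 in several tumors, and 3 of 4 tested were higher at an unadjusted p under 0.05. Erythrocyte markers summed to 10.2 to 55.0 CPM in vehicle and 3.57 to 17.9 CPM in liraglutide tumors, 4 of 4 being lower at an unadjusted p under 0.05. Fibroblast markers (1705 to 4056 and 2330 to 3971 CPM), endothelial markers (90.0 to 145 and 92.0 to 119 CPM), adipocyte markers (15.3 to 85.9 and 19.2 to 50.7 CPM) and markers of epithelium and lung adenocarcinoma (4690 to 10248 and 5036 to 7451 CPM) overlapped between the groups in their sums. At an edgeR unadjusted p under 0.05 these lists had 1 of 8 fibroblast genes (Pdgfrb, higher by 0.36), 0 of 5 endothelial, 0 of 4 tested adipocyte and 1 of 9 epithelial genes (the lung lineage factor Nkx2-1, higher by 0.99). Of the 9 epithelial genes 4 were negative, the keratins Krt8 (-0.26), Krt18 (-0.23) and Krt19 (-0.33) among them, and 5 were positive, among them Cdh1 (0.47) and Epcam (0.27). The part of cell makeup and proliferation in the members' values was not tested.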

How the data were processed

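Raw counts per gene were deposited by the authors for 10 tumors, whole numbers with no normalization. They prepared strand-marking libraries after ribosomal RNA depletion, sequenced read pairs, mapped them with Bowtie and TopHat to the mouse genome and counted them with featureCounts; strand setting, multiple matches and annotation release are not given in the sources used here, and builds named in the study's methods and in the submitters' processing notes differ. Groups and tumor numbers came from the sample titles. Gene identifiers were matched to GENCODE M39 for symbols, type and canonical transcript length (51731 of 55401, 98.3% of counts). No gene positions were taken from it.

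Genes were filtered with filterByExpr, scaled by TMM and tested by the quasi-likelihood F test in edgeR 4.0.16 (R 4.3.3), treatment being the single factor, with Benjamini-Hochberg adjustment over 17464 genes. The standard error is the log2 fold change divided by the square root of F. Scores used log2 CPM with a prior count of 2, and ratios counts plus 0.5. Promoter windows came from RefSeq (GRCm38.p6); no window was found for the tested members Eef1akmt1, Eef1akmt3, Eef1d, Eef1g, Eif1a, Eif2b3, Eif3e, Eif3h, Eif3i, Eif4e3, Eif4g2 and Eif6. The edgeR, DESeq2 and limma-voom fits were run on simulated counts with known fold changes, and the permutation test on known values. Alternatives used DESeq2 1.42.0, limma 3.58.1 (voom), sva 3.50.0, other scalings, filters and gene sets, the tumor number as a block, and each tumor left out.

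The members, lists and tests were chosen with earlier results of these data known. Members named in full were the 10 lower and 6 higher ones of smallest p, the one of highest TPM in each group, and a fixed set by role; Eif3b, Eif3c, Eif3f, Eif3j1 and Eef1g were added after their values were seen, and the genes of the 9 ratios by the choice of pairs. Floors of 3 counts cover counting error only. The engineered alleles of the line are not reported here.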

Additional observations from a re-analysis of the deposited data

Results flagged for a closer look

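In groups of 5 tumors, a value was singled out where its gap to the nearest other tumor took up more than 0.71 of the group's range (Dixon's criterion). Chance singles out about 1 in 20 groups, and 6 of 88 groups examined were. In liraglutide tumor 2, Eif2s2 was at 233 CPM (next highest 167), Eif2s3x at 88.81 CPM (next 76.8) and Eif3a at 1111 CPM (next 743.2), all above the rest of their group. In liraglutide tumor 5, Eef1akmt3 was at 1.935 CPM (next 0.9447). In vehicle tumor 4, Eef2 was at 1405 CPM (next lowest 2135) and the score of eIF4 at -0.5562 (next lowest 0.215). Liraglutide tumor 2 also had the highest keratinocyte markers and, of its group, the highest proliferation markers, and vehicle tumor 4 had the lowest proliferation markers and the highest Xist of all 10 tumors. What sets these tumors apart was not tested.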

How the results depend on the processing

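Of the choices tried, DESeq2 in place of edgeR gave 52 genes with an adjusted p under 0.05 in place of 0, with its own scaling and 35103 genes in place of 17464 in the same step, and 0 members under every choice; 31 members had no adjusted p in DESeq2. The number of members with a negative log2 fold change stayed between 41 and 47 in these fits, none of which used TPM. The number lower at an unadjusted p under 0.05 was 11 to 18 under the other fits (11 with library size alone and with 1 surrogate variable, where 3.54% and 6.09% of all genes were lower) and 9 to 24 with single tumors left out. The number higher was 0 without the tumors of highest Xist, an alternative chosen after seeing the data, and 0 to 2 with single tumors left out. The median of all members was -0.18 to -0.11 under the other fits and -0.20 to -0.14 with single tumors left out. For eIF3 it was -0.20 to -0.11 and -0.21 to -0.13. The median of eIF5 with eIF6 was -0.23 with 1 surrogate variable and -0.28 to -0.042 with single tumors left out. That of the modifying enzymes was -0.0036 with 1 surrogate variable. With library size alone, the score differed between groups by -0.56 in place of -0.78 for eIF2, -0.085 in place of -0.31 for eIF4, -0.49 in place of -0.75 for eIF5 with eIF6 and 0.45 in place of 0.29 for the modifying enzymes, and the median of all genes moved from -0.02 to 0.04. Left-out tumors gave ratio differences of 0.35 to 0.61 for Eif2s3y to Eif2s3x, 0.17 to 0.32 for Eif4g3 to Eif4g1, 0.31 to 0.52 for Eif4e2 to Eif4e and 0.60 to 1.03 for Eif4e3 to Eif4e, each passing an unadjusted exact permutation p under 0.05 without 1 tumor or another. The cause of these moves was not tested.

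The tumor numbers were also used as a replicate block. After group means were subtracted, same-numbered tumors correlated at 0.354, 0.565, -0.0753, 0.0681 and 0.389 (mean 0.26, against -0.0682 between different numbers). Since some pairs did not correlate, and no label says that a number marks a shared animal or batch, the tumors were not treated as paired, which leaves a partial pairing possible. With the block, 18 members were lower (7.31% of all genes were) and 2 higher (7.5%) at an unadjusted p under 0.05, and the paired ratio of Eif4g2 to Eif4g1, whose difference is -0.24 by construction, had an exact permutation p of 0.0625. That is the smallest p that 5 pairs allow, so it says nothing about stability. Of the 58 tested members, 49 had at least 100 counts in every tumor, and effects of depth were not tested.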
